A study of Homo sapiens with 4 samples.

Results

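Vascular endothelial growth factors, their receptors and a few relatives of the angiopoietin family were examined in MDA-MB-231, a triple-negative human breast cancer cell line, and LM2-4175, a lung-metastatic line that was isolated from it. The members are the 10 genes VEGFA, VEGFB, VEGFC, PGF, FLT1, KDR, NRP1, NRP2, ANGPTL4 and ANGPT1, taken by symbol from an RNA sequencing table of 57815 genes. Each cell line was sequenced as 2 libraries of total RNA, 4 libraries in all. The cells of both lines were untreated and were grown in the same medium with fetal bovine serum, and LM2-4175 is a single derived line, so the comparison is of these lines and not of metastatic and non-metastatic cells in general.

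The authors joined the libraries of a cell line in 1 FPKM value (fragments counted for each kilobase of a transcript, relative to all mapped fragments) with a lower and an upper bound. No value per library was examined here, so there is no SD between replicates and no p-value, and the error given with each value is the authors' bounds. The number of reads behind a value is not in the table. Across the 13911 genes tested, the distance from the FPKM to the upper bound had a median of 38.6% of the FPKM in MDA-MB-231 and 38.1% in LM2-4175.

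As background, the VEGF ligands are secreted growth factors that bind receptor tyrosine kinases on endothelial cells, and VEGFA acting through KDR is the best known signal for new blood vessel growth. Placental growth factor (PGF) and VEGFB bind FLT1, which also takes up VEGFA, whereas VEGFC acts mostly on FLT4 and on lymphatic vessels. Neuropilins are co-receptors that bind VEGF and class 3 semaphorins, ANGPT1 is the ligand of the receptor TEK that stabilises vessels, and ANGPTL4 is a secreted inhibitor of lipoprotein lipase. ANGPTL4 has been studied in the spread of breast cancer cells to the lung.

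The marker genes of the cell type were read first. The basal and mesenchymal markers were high in both lines, as VIM had 1355 FPKM in MDA-MB-231 and 1768 FPKM in LM2-4175, while the hormone receptor genes ESR1 and PGR were at most 0.0331 FPKM. Other luminal markers were expressed. KRT8 had 625.7 FPKM in MDA-MB-231 and 180.2 FPKM in LM2-4175, and ERBB2 had 34.95 and 22.76 FPKM, in the same order. Of the 12 endothelial markers with values, CDH5, VWF, CLDN5, EMCN, ERG, SOX18 and TEK were under 0.1 FPKM in both lines and SOX17 was listed at 0. PECAM1, also on the list, had no values. The other genes of that list were expressed, as ESAM had 45.3 and 67.4 FPKM, EGFL7 had 34.5 and 15.6 FPKM, ROBO4 had 14.2 and 59.0 FPKM and TIE1 had 0.332 and 3.81 FPKM. Of the white blood cell markers, PTPRC had 0.0767 FPKM in MDA-MB-231 and 0.0263 FPKM in LM2-4175, and CD3E was listed at 0, whereas CD68 had 107.0 and 178.9 FPKM.

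Promoter sequences are shown for PGF, KDR and ANGPTL4, the first 2 because they are called higher in LM2-4175 below and have a window in the RefSeq table, and ANGPTL4 because among the 7 members with a window it alone held the hypoxia core motif. VEGFA, NRP1 and ANGPT1 were not searched. Each is the 250 bases before an annotated start in GRCh38.p14, while the gene positions further below are in GRCh37. In capitals are the GC box GGGCGG, the core of the hypoxia response element ACGTG and the TATA box TATAAA, each searched on both strands, so that CCGCCC and CACGT mark the other strand. The PGF windows belong to different annotated starts, overlap each other and lie at chr14:74955765-74956014 and chr14:74955598-74955847 on the minus strand. The KDR window is chr4:55125596-55125845 on the minus strand, and the ANGPTL4 window is chr19:8363905-8364154 on the plus strand.
PGF, upstream start: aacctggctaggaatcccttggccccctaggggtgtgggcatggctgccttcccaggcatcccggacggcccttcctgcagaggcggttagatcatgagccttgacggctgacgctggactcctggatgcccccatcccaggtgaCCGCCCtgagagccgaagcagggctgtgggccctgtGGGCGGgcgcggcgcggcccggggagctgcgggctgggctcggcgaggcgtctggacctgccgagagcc
PGF, downstream start: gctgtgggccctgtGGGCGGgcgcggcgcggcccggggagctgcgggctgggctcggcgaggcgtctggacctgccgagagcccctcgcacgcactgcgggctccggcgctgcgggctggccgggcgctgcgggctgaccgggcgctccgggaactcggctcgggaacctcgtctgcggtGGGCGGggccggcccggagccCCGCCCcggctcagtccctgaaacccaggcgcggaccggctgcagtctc
KDR: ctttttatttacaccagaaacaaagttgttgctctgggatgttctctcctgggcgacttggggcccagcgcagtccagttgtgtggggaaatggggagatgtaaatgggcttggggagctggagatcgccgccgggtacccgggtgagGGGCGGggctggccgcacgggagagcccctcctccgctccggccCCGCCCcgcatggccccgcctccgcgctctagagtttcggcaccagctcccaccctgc
ANGPTL4: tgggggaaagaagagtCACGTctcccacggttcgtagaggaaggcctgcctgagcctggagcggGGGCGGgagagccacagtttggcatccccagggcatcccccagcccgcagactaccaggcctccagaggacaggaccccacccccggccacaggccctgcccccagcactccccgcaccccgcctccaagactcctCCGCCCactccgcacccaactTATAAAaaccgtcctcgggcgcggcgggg

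Of the 10 members, 7 had a window, which were VEGFB, VEGFC, PGF, FLT1, KDR, NRP2 and ANGPTL4. The GC box was found in the windows of all 7 and in 42.6% of 35116 promoter windows of the same length. VEGFB held 6 of them, and KDR, VEGFC and ANGPTL4 held 2 each. The windows were rich in G and C, from 65.2% in KDR to 82.8% in VEGFB, where the median of all windows was 58.0%. The hypoxia core ACGTG stood in the ANGPTL4 window at positions -234 to -230 before the start, in none of the other members' windows and in 18.5% of all windows. A TATA box was found in ANGPTL4 at -29 to -24 and in FLT1 at -31 to -26, compared with 10.7% of all windows. The AP-1 motif TGANTCA was in no window of a member and in 6.57% of all windows. A motif match here describes letters in a window and is not evidence that a factor binds there.

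Expression of the members was then compared between the cell lines. Changes are log2 ratios of FPKM + 1, LM2-4175 over MDA-MB-231, and a gene was called where its mean was at least 0.5 FPKM, its change of FPKM + 1 was at least 1.5-fold and its bounds did not overlap. By this rule VEGFA, PGF and KDR were called higher in LM2-4175 and ANGPT1 was called lower. VEGFB, VEGFC, NRP1, NRP2 and ANGPTL4 had overlapping bounds and were not called, and FLT1 was too low to be tested. Thus 3 of 9 members tested were called higher, against 4.67% of all genes tested (649 genes), and 1 was called lower, against 4.61% (641 genes). The median change of the 9 members was 0.73, whereas that of all genes tested was -0.04, with 6326 higher and 7585 lower. The call compares pooled libraries and has no replicate check. ANGPT1 passed the filter on low values only through its level in MDA-MB-231. The members were also chosen with earlier results of these data known, so these shares describe them and are not an independent test. In RNA from whole cultures, more cells that express a gene and more RNA per cell cannot be told apart.

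**Figure D1:**
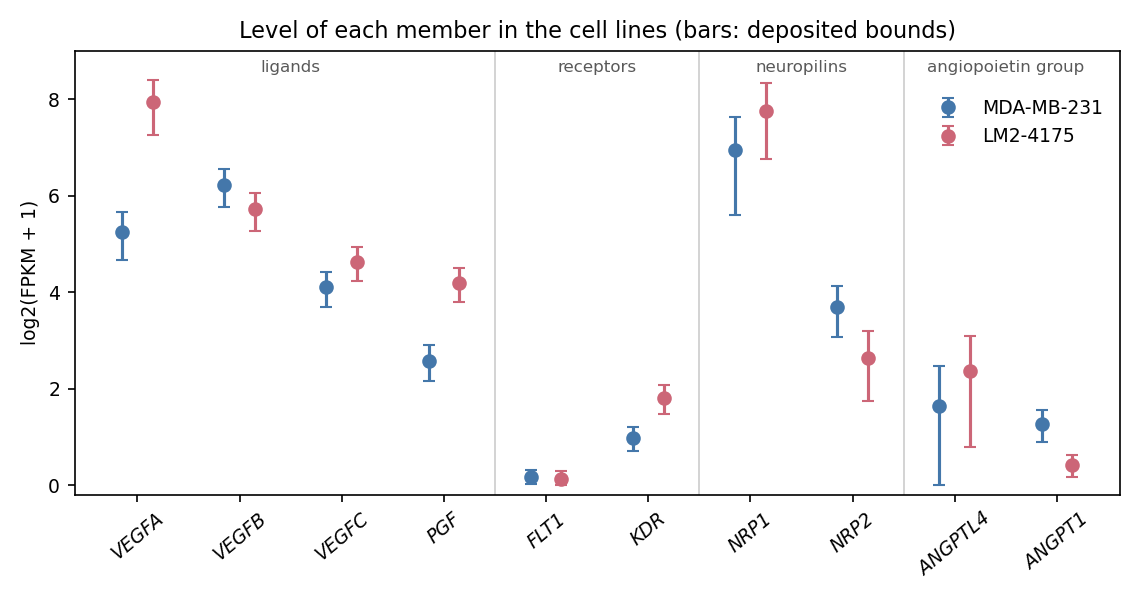
Level of each member in MDA-MB-231 (blue) and LM2-4175 (red) as log2(FPKM + 1), with the deposited bounds as bars. VEGFA is at 37.1 FPKM in MDA-MB-231 and 242.8 FPKM in LM2-4175, the bounds of VEGFA, PGF, KDR and ANGPT1 are apart, and those of the other 6 members overlap.

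Among the ligands, VEGFA changed most. The gene (ENSG00000112715) lies at 43737921 to 43754224 on the plus strand of chromosome 6 in GRCh37, the build of all positions below. VEGFA had 37.1 FPKM (bounds 24.3 to 49.8) in the MDA-MB-231 cells and 242.8 FPKM (bounds 152.6 to 333.0) in the LM2-4175 cells. The bounds were far apart, and the ratio of the FPKM values was 6.55. The log2 change was 2.68, with 1.60 and 3.72 as the lowest and highest change that the bounds allow. Only 72 of the genes tested (0.518%) had a change at least as high. By level, VEGFA moved from rank 3137 in MDA-MB-231 to rank 299 in LM2-4175 among all genes with a usable status. An antisense gene covers 1.30% of the exon bases of VEGFA, and the methods do not say whether reads were counted by strand.

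PGF, the placental ligand of FLT1, was the other ligand called higher. PGF (ENSG00000119630, minus strand of chromosome 14, 75408537 to 75422329) had 4.97 FPKM (bounds 3.47 to 6.47) in the MDA-MB-231 cells and 17.2 FPKM (bounds 12.8 to 21.5) in the LM2-4175 cells. Its bounds were also apart, with a log2 change of 1.61 (0.88 to 2.33 from the bounds) and a ratio of 3.45. A change at least as high was found in 1.65% of the genes tested.

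VEGFB and VEGFC differed by less than their bounds. VEGFB (ENSG00000173511, plus strand of chromosome 11, 64002056 to 64006736) had 73.1 FPKM (bounds 53.2 to 92.9) in the MDA-MB-231 cells and 51.4 FPKM (bounds 37.4 to 65.3) in the LM2-4175 cells, a log2 change of -0.50 that the bounds allow to lie between -1.29 and 0.29. VEGFC (ENSG00000150630, minus strand of chromosome 4, 177604689 to 177714076), the lymphatic ligand, had 16.1 FPKM (bounds 11.99 to 20.2) and 23.7 FPKM (bounds 17.8 to 29.6), in the same order. Its log2 change was 0.53, with a range of -0.18 to 1.24, and the direction of neither gene was settled by the bounds.

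The make-up of the ligand transcripts was therefore different in the cell lines. The sum over VEGFA, VEGFB, VEGFC and PGF was 131.2 FPKM in MDA-MB-231 and 335.1 FPKM in LM2-4175. In MDA-MB-231, VEGFA accounted for 28.3% of this sum and VEGFB for 55.7%. In LM2-4175, VEGFA accounted for 72.5% and VEGFB for 15.3%. The share of VEGFC was 12.3% and 7.07%, and that of PGF was 3.79% and 5.12%, in the same order. The ratio of VEGFA to VEGFB was 0.507 in MDA-MB-231 (0.261 to 0.937 from the bounds) and 4.73 in LM2-4175 (2.34 to 8.90). These ranges lie on opposite sides of 1 and do not overlap, so VEGFB was the more abundant of the pair in MDA-MB-231 and VEGFA in LM2-4175. The ratio of VEGFA to VEGFC also had ranges apart, from 1.203 up to 4.16 for MDA-MB-231 and from 5.15 up to 18.7 for LM2-4175. By contrast, the ratio of VEGFA to PGF was 7.46 in MDA-MB-231 (3.75 to 14.4) and 14.2 in LM2-4175 (7.09 to 26.0), with ranges that overlap.

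**Figure D2:**
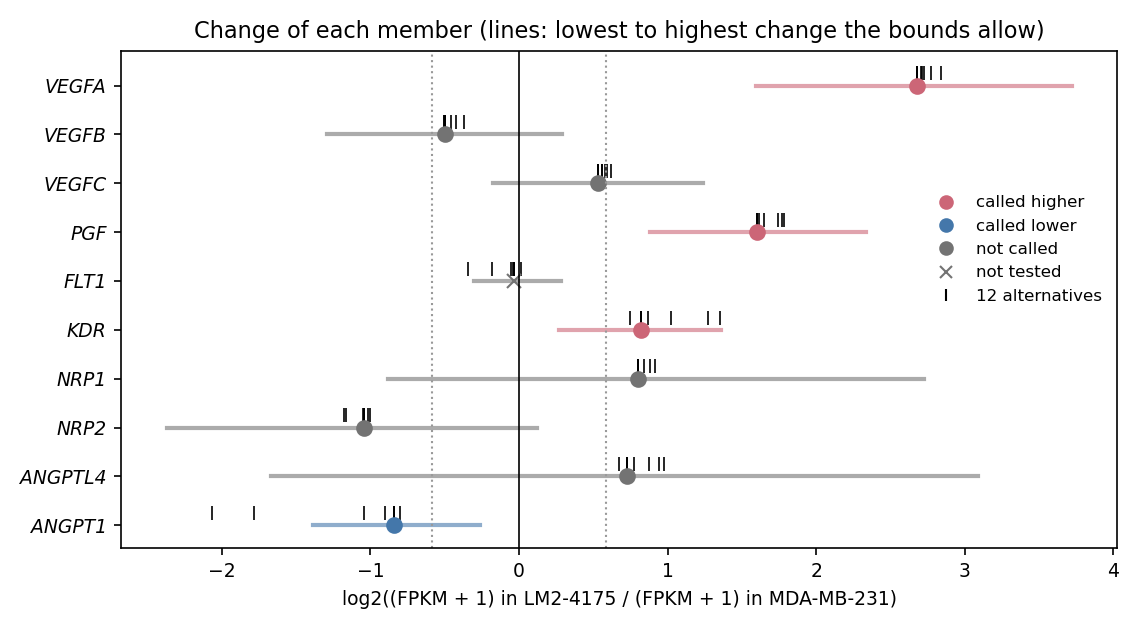
Log2 change of FPKM + 1 in LM2-4175 over MDA-MB-231 for each member (points), with the lowest and highest change the bounds allow (lines), the values under 12 alternatives (ticks) and dotted lines at 1.5-fold. VEGFA, PGF, KDR and ANGPT1 have lines clear of 0, while the line of ANGPTL4 runs from -1.67 to 3.09.

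The receptors were low in both cell lines. KDR (ENSG00000128052, minus strand of chromosome 4, 55944648 to 55991762), the main signalling receptor of VEGFA, had 0.971 FPKM (bounds 0.634 to 1.31) in the MDA-MB-231 cells and 2.48 FPKM (bounds 1.78 to 3.19) in the LM2-4175 cells. Its bounds were apart, the FPKM ratio was 2.56, and the log2 change on the FPKM + 1 scale was 0.82 (0.27 to 1.36 from the bounds), a scale that understates changes of low genes. A change at least as high was found in 6.22% of the genes tested. KDR was not called where at least a 2-fold change of FPKM + 1 was asked for, and it was not tested where the mean had to be at least 5 FPKM.

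FLT1 (ENSG00000102755, minus strand of chromosome 13, 28874483 to 29069282), the receptor shared by VEGFA, VEGFB and PGF, had 0.123 FPKM (bounds 0.00902 to 0.236) in the MDA-MB-231 cells and 0.0964 FPKM (bounds 0 to 0.228) in the LM2-4175 cells. Its bounds overlapped almost entirely. Its mean of 0.109 FPKM was under the filter, its log2 change was -0.03, and the sign of that value turned to 0.01 when changes were centred on the median of the genes tested. No difference in FLT1 was detectable at this level. KDR exceeded FLT1 by a ratio of 7.93 in MDA-MB-231 (2.69 to 144.9 from the bounds) and of 25.8 in LM2-4175 (from 7.81). The latter has no upper limit because the lower bound of FLT1 in LM2-4175 was 0, and the ranges overlap.

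The neuropilins were the more abundant receptors. NRP1 (ENSG00000099250, minus strand of chromosome 10, 33466420 to 33625190), the co-receptor that binds VEGFA, had 122.4 FPKM (bounds 47.5 to 197.2) in the MDA-MB-231 cells and 213.6 FPKM (bounds 106.8 to 320.4) in the LM2-4175 cells. Its bounds were wide, reaching 61.2% of the FPKM in MDA-MB-231 and 49.99% in LM2-4175. The bounds of the lines overlapped. The log2 change of 0.80 could thus lie anywhere from -0.88 to 2.73. NRP1 exceeded KDR by a ratio of 126.1 in MDA-MB-231 (36.4 to 310.8 from the bounds) and of 86.0 in LM2-4175 (33.5 to 180.0), ranges that overlap. Exons of an antisense gene cover 4.87% of its exon bases.

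NRP2 (ENSG00000118257, plus strand of chromosome 2, 206546714 to 206662857), known as a co-receptor for VEGFC, had 11.9 FPKM (bounds 7.39 to 16.3) in the MDA-MB-231 cells and 5.24 FPKM (bounds 2.35 to 8.12) in the LM2-4175 cells. The upper bound in LM2-4175 was just above the lower bound in MDA-MB-231. Its log2 change was -1.05 (-2.37 to 0.12), and it was called lower by the fold alone, a rule that called 11.8% of all genes tested lower, and by a test on standard errors taken from the bounds, which called 9.09%. The ratio of NRP1 to NRP2 was 10.3 in MDA-MB-231 (2.91 to 26.7) and 40.8 in LM2-4175 (13.2 to 136.3), with overlapping ranges.

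ANGPTL4 and ANGPT1 are the members related to the angiopoietin family. ANGPTL4 (ENSG00000167772, plus strand of chromosome 19, 8428173 to 8439254) had 2.10 FPKM (bounds 0 to 4.51) in the MDA-MB-231 cells and 4.13 FPKM (bounds 0.737 to 7.52) in the LM2-4175 cells. Its bounds were the widest of the tested members, reaching 115.0% of the FPKM in MDA-MB-231 and 82.2% in LM2-4175. The FPKM ratio was 1.97 and the log2 change 0.73, but the bounds allow values from -1.67 to 3.09, so a change was not detectable. The table gives ANGPTL4 the same interval as RAB11B, MIR4999 and RAB11B-AS1, although no exon bases of ANGPTL4 overlap another gene in the annotation used here. VEGFA (with RP1-261G23.7), KDR (with RN7SL424P and RP11-530I17.1), VEGFC, NRP1, NRP2 and ANGPT1 also share their table interval with other genes, and of these VEGFA, NRP1 and NRP2 (1.06% of exon bases) have exon bases that overlap another gene.

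ANGPT1 (ENSG00000154188, minus strand of chromosome 8, 108261710 to 108510283) was the only member called lower. It had 1.39 FPKM (bounds 0.853 to 1.93) in the MDA-MB-231 cells and 0.333 FPKM (bounds 0.123 to 0.544) in the LM2-4175 cells. The bounds were apart, with MDA-MB-231 the higher by a ratio of 4.18. The log2 change on the FPKM + 1 scale was -0.84, from -1.39 to -0.26. ANGPT1 passed the filter on low values only through its level in MDA-MB-231. With its LM2-4175 level in both lines it would not have been tested. It was also no longer tested where the mean had to be at least 1 FPKM.

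Ranked by FPKM, which is per length and so can be compared between genes, the members fell in a different order in the cell lines. In MDA-MB-231 the order was NRP1, VEGFB, VEGFA, VEGFC, NRP2, PGF, ANGPTL4, ANGPT1, KDR and FLT1. Neighbours in this order with bounds apart were VEGFB and VEGFA, VEGFA and VEGFC, NRP2 and PGF, and KDR and FLT1, and all other neighbours overlapped. In LM2-4175 the order was VEGFA, NRP1, VEGFB, VEGFC, PGF, NRP2, ANGPTL4, KDR, ANGPT1 and FLT1. Here the bounds were apart between NRP1 and VEGFB, VEGFB and VEGFC, PGF and NRP2, and KDR and ANGPT1, while VEGFA and NRP1 at the top overlapped. VEGFA with VEGFB, and PGF with NRP2, changed places between the lines with bounds apart in each.

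**Figure D3:**
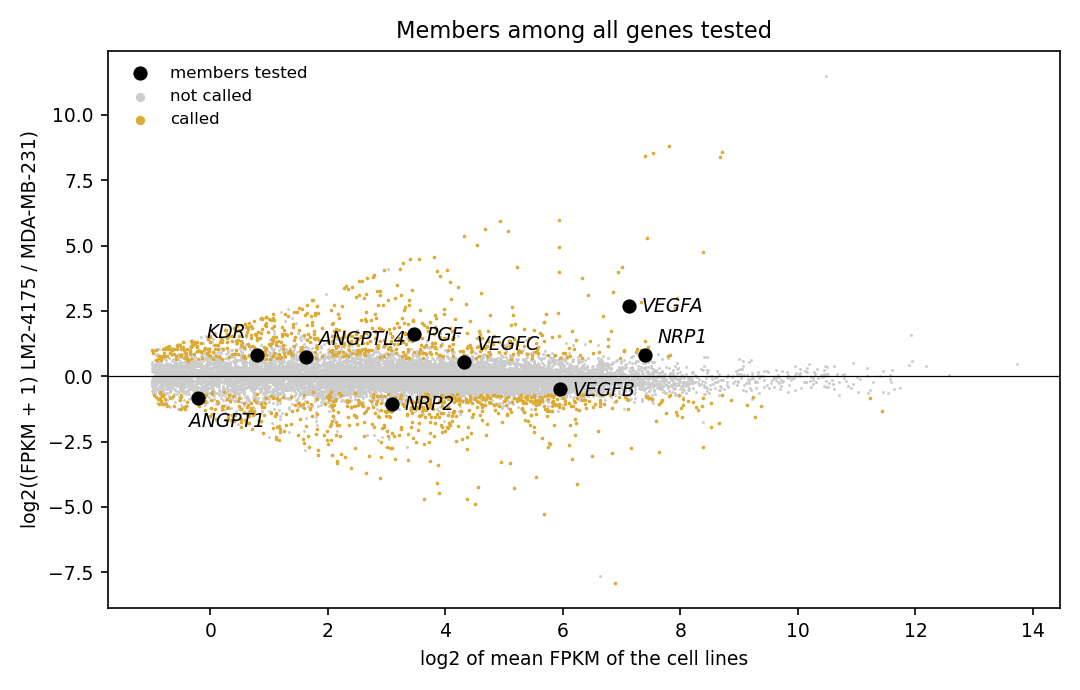
Log2 change of FPKM + 1 against the log2 mean FPKM of the cell lines for 13911 genes tested (grey, not called; yellow, called), with the 9 members tested in black. VEGFA stands at 2.68 with a mean of 139.9 FPKM, and 77.9% of all genes tested changed less than 1.5-fold.

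The genes with levels most like each called member were found from the distance in log2(FPKM + 1) over the 2 cell lines. With only 2 values per gene this measures similar levels and no more. For VEGFA the closest gene was PTGES, prostaglandin E synthase, with 38.3 FPKM in MDA-MB-231 and 283.7 FPKM in LM2-4175 (distance 0.23). It was followed by MT1X, a metallothionein of a family of near-identical genes whose reads may be split, at 0.52, and SAT1, an enzyme of polyamine breakdown, at 0.68. For PGF the closest were LRP1, an endocytic receptor of 5.15 and 17.2 FPKM, PIK3CD, a catalytic subunit of PI3-kinase, and IRAK2, a kinase of Toll-like receptor signalling. They were CHSY3, a chondroitin synthase, RP11-460N11.3 and the ephrin EFNA3 for KDR, and the histone gene HIST1H2AG, AC073283.4 and RP11-89K21.1 for ANGPT1.

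Closer and more distant relatives of the members were examined next. Beside the counts of calls in each list and among neighbours below stand 4.67% of all genes tested called higher and 4.61% called lower. Of 13 kin among the VEGF and angiopoietin genes, only TIE1 and ANGPTL2 reached a mean of 0.5 FPKM. TIE1, a receptor of the angiopoietin system, was called higher, from 0.332 FPKM in MDA-MB-231 to 3.81 FPKM in LM2-4175, a log2 change of 1.85. ANGPTL2, a secreted relative of ANGPTL4, had 12.9 FPKM in MDA-MB-231 and 1.53 FPKM in LM2-4175, but bounds of 0 to 25.8 in MDA-MB-231 left it uncalled. The main receptors of VEGFC and ANGPT1 were near 0, as FLT4 in MDA-MB-231 was listed at 0 and in LM2-4175 at 0.00913 FPKM, and TEK had 0.0574 and 0.0250 FPKM. VEGFD (FIGF in the table), the other lymphatic ligand, was below 0.04 FPKM in both.

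The platelet-derived growth factors, which share the fold of the VEGF ligands, had 5 of 6 genes tested, of which 3 were called higher and 1 lower. Over all genes tested, 4.67% were called higher and 4.61% lower. PDGFA rose from 4.37 to 15.5 FPKM (log2 change 1.62), PDGFB from 0.326 to 2.38 FPKM (1.35) and PDGFD from 0.254 to 1.62 FPKM (1.06). PDGFB and PDGFD passed the filter only through their level in LM2-4175. PDGFRB, a receptor of the family, was called lower, from 9.44 to 1.91 FPKM (-1.84), and the receptor PDGFRA had 0.016 and 0.032 FPKM and was not tested. PDGFC, the most abundant of them, had 62.1 FPKM in MDA-MB-231 and 60.6 FPKM in LM2-4175 and was not called.

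Partners of the neuropilins, the class 3 semaphorins, plexins and GIPC1, had 11 of 13 genes tested with 4 higher and 7 lower, and the median change was -0.06, which turned to 0.014 when values were scaled to the same sum (TPM). None was called higher and 1 was called lower. The called gene was SEMA3B, a semaphorin that binds neuropilins, with 27.9 FPKM in MDA-MB-231 and 10.5 FPKM in LM2-4175 (log2 change -1.34). GIPC1, which binds the tail of NRP1, was the most abundant, at 94.9 FPKM and 87.4 FPKM.

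Signalling genes downstream of the VEGF receptors had 48 of 52 table entries tested, 22 higher and 26 lower, and had a median of -0.04, or 0.031 as TPM. Of these, 4 were called higher and 2 lower. PTGS2, the inducible cyclooxygenase, was called higher with 0.455 FPKM in MDA-MB-231 and 46.0 FPKM in LM2-4175 (log2 change 5.01), and exons on the opposite strand cover 3.99% of it. PLA2G4A, the phospholipase that releases arachidonic acid, rose from 0.504 to 7.78 FPKM (2.55). The other genes called higher were SPHK1, sphingosine kinase, from 7.97 to 20.4 FPKM (1.25), and SH2D2A, a T cell adaptor, from 0.0674 to 1.18 FPKM (1.03). NOS3, endothelial nitric oxide synthase, was called lower, from 4.06 to 0.318 FPKM (-1.94), as was the small heat shock protein HSPB1, from 159.0 to 81.1 FPKM (-0.96). Exons on the opposite strand cover 13.25% of NOS3. RAC1, the most abundant, had 298.1 FPKM in MDA-MB-231 and 267.8 FPKM in LM2-4175. These calls stand beside 4.67% of all genes tested called higher and 4.61% called lower, and nothing particular to the list is read from them.

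**Figure D4:**
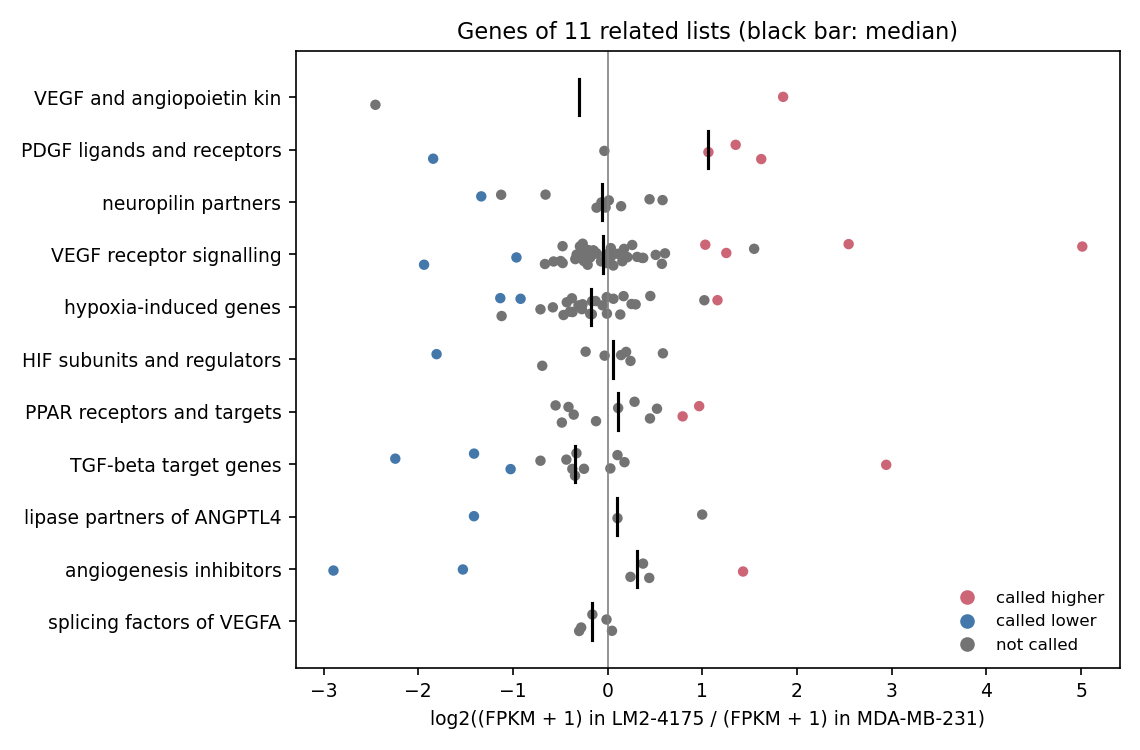
Log2 change of FPKM + 1 in LM2-4175 over MDA-MB-231 for tested genes of 11 related lists (red, called higher; blue, called lower; grey, not called; black bars, medians). Hypoxia-induced genes have a median of -0.18 with 8 higher and 20 lower, and PTGS2 in the VEGF receptor signalling list is farthest right at 5.01.

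VEGFA and ANGPTL4 are known targets of hypoxia-inducible factors, and ANGPTL4 also of PPAR receptors and TGF-beta. Of 28 other hypoxia-induced genes, all tested, 8 were higher and 20 lower, their median was -0.18, and 1 was called higher and 2 lower. ADM, the vasodilator adrenomedullin, rose from 24.8 to 56.6 FPKM (log2 change 1.16), whereas LOX, the collagen cross-linking lysyl oxidase, fell from 41.7 to 18.4 FPKM (-1.13) and the glucose transporter SLC2A1 from 181.5 to 95.5 FPKM (-0.92). The glycolytic enzyme ENO1 was the highest, with 2211 FPKM in MDA-MB-231 and 1639 FPKM in LM2-4175. HIF subunits and their regulators had 8 of 9 genes tested, 4 higher and 4 lower, with a median of 0.05. Only ARNT2, a HIF partner subunit, was called, lower, from 18.9 to 4.69 FPKM (-1.81), and HIF1A itself had 216.2 and 238.7 FPKM.

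PPAR receptors and targets had 11 of 13 genes tested, 6 higher and 5 lower, with a median of 0.11. SLC25A20, the mitochondrial carnitine carrier, was called higher from 3.48 to 7.76 FPKM (0.97), and the fatty acid binding protein FABP4 from 0.132 to 0.960 FPKM (0.79). FABP4, like PTGS2, PDGFB, PDGFD, SH2D2A, TIE1 and the neighbours ADAM23, WDR17 and CTD-3193O13.9 described below, had under 0.5 FPKM in MDA-MB-231. These genes passed the filter only through their level in LM2-4175. NOS3 passed it only through MDA-MB-231. ACADVL, an enzyme of fatty acid oxidation, was the most abundant at 118.9 and 171.0 FPKM. All 13 TGF-beta targets were tested, 4 higher and 9 lower, with a median of -0.34. COL1A1, a fibrillar collagen, was called higher from 3.16 to 31.0 FPKM (2.94), and called lower were TAGLN, an actin-binding protein with 47.8% of its exon bases overlapped by other genes, from 122.8 to 25.1 FPKM (-2.24), fibronectin FN1 from 313.7 to 117.3 FPKM (-1.41) and the inhibitory SMAD7 from 8.30 to 3.57 FPKM (-1.03).

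The lipases and cofactors on which ANGPTL4 acts had 3 of 7 genes tested, 2 higher and 1 lower. The endothelial lipase LIPG was called lower, from 9.36 to 2.89 FPKM (-1.41). Lipoprotein lipase LPL, the known target of ANGPTL4, had overlapping bounds, with 0.339 to 2.01 around 1.17 FPKM for MDA-MB-231 and 1.29 to 5.39 around 3.34 FPKM for LM2-4175.

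Among inhibitors of angiogenesis, 6 of 12 genes were tested, 4 higher and 2 lower, and 3 were called. All genes tested had 4.67% called higher and 4.61% called lower. THBS1, thrombospondin 1, had 351.6 FPKM (bounds 206.5 to 496.7) in the MDA-MB-231 cells and was called lower at 46.4 FPKM (bounds 30.2 to 62.5) in the LM2-4175 cells, a log2 change of -2.90. COL18A1, whose C-terminal fragment is endostatin, fell from 79.2 to 26.8 FPKM (-1.53), and ADAMTS1, a protease with antiangiogenic repeats, rose from 2.03 to 7.16 FPKM (1.43). Exons on the opposite strand cover 7.58% of THBS1 and 18.5% of COL18A1. The 2 most abundant inhibitors of the list were thus the ones called lower. The splicing factors that act on VEGFA transcripts had 5 of 5 genes tested, none called, and a median of -0.16, with SRSF1 the highest at 172.2 and 177.8 FPKM. The table has no values by transcript, so VEGFA isoforms were not analysed here.

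The 2 endothelial receptors KDR and TIE1 were called higher in cells that are not endothelial, and the markers of other cells were therefore set beside them. TIE1 is itself on the endothelial list. Of 12 endothelial markers in the table, 4 were tested, with TIE1 and ROBO4 called higher and EGFL7 called lower, and their sum over the list was 94.4 FPKM in MDA-MB-231 and 146.0 FPKM in LM2-4175. ROBO4, a guidance receptor, rose from 14.2 to 59.0 FPKM (log2 change 1.98) and EGFL7, a secreted vessel factor, fell from 34.5 to 15.6 FPKM (-1.10), while the adhesion molecule ESAM, at 45.3 and 67.4 FPKM, was the highest. Exons on the opposite strand cover 18.0% of ROBO4. The markers that were not tested, among them CDH5, VWF, CLDN5, EMCN and SOX17, were at or near 0, as given above. Of 8 white blood cell markers, 3 were tested and none was called, and their sum of 111.6 FPKM in MDA-MB-231 and 181.6 FPKM in LM2-4175 was mostly CD68 (107.0 and 178.9 FPKM), a gene with 85.6% of its exon bases shared with other genes.

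Markers of breast cell state also differed. Of 7 basal and mesenchymal markers, none was called higher and CAV1, the caveolar coat protein, was called lower, from 587.3 to 151.1 FPKM, while the galectin LGALS1 was the highest at 1789 and 1519 FPKM. Of 9 luminal markers, 7 were tested, all 7 were lower in LM2-4175 and 4 were called lower. These were the keratins KRT19 (250.3 to 36.3 FPKM), KRT8 (625.7 to 180.2 FPKM) and KRT18 (448.5 to 181.1 FPKM) and the adhesion molecule EPCAM (12.3 to 4.93 FPKM). Over all genes tested, 7585 of 13911 were lower and 4.61% were called lower. Exons on the opposite strand cover 17.1% of KRT18 and 7.63% of KRT8. The part of these markers in the differences of the VEGF genes was not tested.

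The genes that neighbour each member were examined to see whether the changes extended along the chromosome. Within 1 Mb of VEGFA, 36 protein-coding genes were tested, 7 of them higher and 29 lower, and their median was -0.44. None of them was called higher and 4 were called lower. The genes called lower there were DNPH1, KLHDC3, CNPY3 and PEX6, from -0.95 in DNPH1 to -0.69 in PEX6, the reverse of the 2.68 of VEGFA. Near PGF, 28 genes were split 14 higher and 14 lower with a median of -0.04, and only FOS, an AP-1 subunit, was called, lower, from 17.6 to 2.99 FPKM (-2.23). Near KDR, 8 genes had a median of -0.20, and KIAA1211 was called higher from 1.43 to 3.56 FPKM (0.91). Near ANGPT1, 3 genes were tested, all lower and none called, with a median of -0.33.

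For the members that were not called, the neighbours varied. VEGFB had 48 neighbours tested with a median of -0.18 and 4 called lower, among them RARRES3, a retinoid-induced gene, from 88.4 to 5.19 FPKM (-3.85). Around NRP2, 7 of 8 neighbours were higher with 3 called higher (ADAM23, PARD3B and ZDBF2) and 1 lower (GPR1, -1.76), and the median of 0.32 was opposite in sign to the -1.05 of NRP2. The 4 neighbours of NRP1 had a median of 0.05 and none was called, among them the integrin ITGB1 with 667.4 and 759.0 FPKM. The 32 neighbours of ANGPTL4 had a median of -0.03, with CTD-3193O13.9 called higher (0.81) and CERS4 called lower (-0.98). The 7 of FLT1 had a median of 0.16 and none was called, and the 4 of VEGFC had 0.25 with WDR17 called higher (1.27). Counts of neighbours are descriptions, since genes along a chromosome are not independent.

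**Figure D5:**
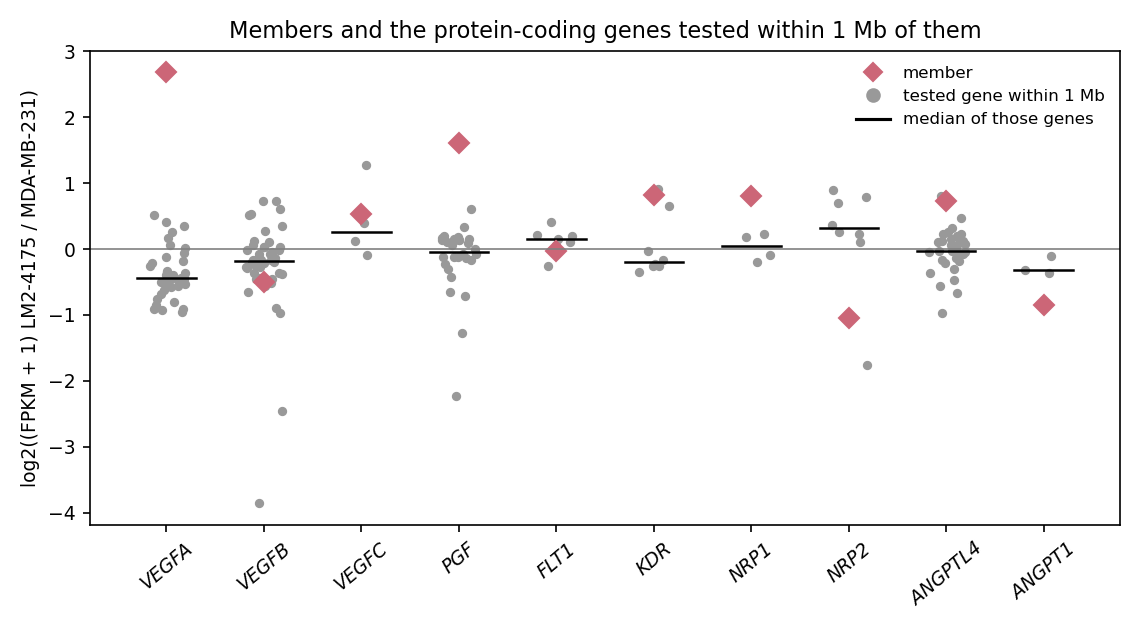
Log2 change of FPKM + 1 of each member (diamonds) and of the protein-coding genes tested within 1 Mb of it (grey points, with their median as a black line). VEGFA at 2.68 and PGF at 1.61 lie above all of their 36 and 28 neighbours, whose medians are -0.44 and -0.04.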

How the data were processed

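RNA of LM2-4175 and MDA-MB-231 cells (2 libraries each) was sequenced by the authors, aligned to hg19 and quantified with TopHat2 and Cuffdiff, as the labels name them. The deposited table holds FPKM values with bounds and a status, with the libraries of a cell line already combined by the authors. How sizes were normalized, whether strand was used and whether the bounds include variation between libraries are not given in the sources used here. Because FPKM at 1 value per cell line allows no replicate test, limma could not be used. Genes with status OK (8 were not) and a mean of at least 0.5 FPKM were tested, on log2(FPKM + 1), a scale that understates changes of low genes. A gene was called at 1.5-fold or more with bounds apart. Scripts used pandas 2.3.3, NumPy 2.4.6 and Matplotlib 3.10.9 under Python 3.11.15, and the call rule was run on simulated data. The simulated noise was drawn from the widths of the bounds, so that run cannot show how the rule behaves where libraries vary by more. A standard error, used in 1 alternative, was the upper bound minus the FPKM, over 2.

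The members and 15 gene lists (202 genes) were chosen with earlier results of these data known. Named were all 10 members, of each list the called genes (at most 4 in each direction) and the most abundant gene, and the 3 genes nearest in level to each called member. Any further gene was picked with its values in view, and some listed genes are left unnamed here. Positions and overlaps came from GENCODE 44 on GRCh37, and promoter windows from RefSeq on GRCh38.p14.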

Additional observations from a re-analysis of the deposited data

How the results depend on the processing

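VEGFA and PGF were called higher in LM2-4175 under all 12 alternatives run, with log2 changes of 2.68 to 2.84 and 1.61 to 1.79. KDR was called in 10 of 12 (0.75 to 1.36) and ANGPT1 in 9 of 12 (-2.06 to -0.80). The number of members called lower was 0 with a mean of at least 1 FPKM, 0 with a mean of at least 5 FPKM and 0 at 2-fold, since ANGPT1 was then not tested or fell short, and 2 with the fold alone and 2 with a test on standard errors from the bounds, which added NRP2. The number called higher was 5 with the fold alone, which added NRP1 and ANGPTL4 and called 10.3% of all genes tested higher, and the test on standard errors added VEGFC (7.58% of all genes). The bounds thus decide the calls of NRP1, NRP2 and ANGPTL4. Over all genes tested, 689 of 26635 (2.59%) were called higher without the filter and 321 of 9519 (3.37%) with a mean of at least 5 FPKM. The main rule called 649 of 13911 higher (4.67%). The fold alone called 1434 of 13911 higher and 1640 lower. Scaling to the same sum, as TPM, moved the median of all genes from -0.04 to 0.03. Medians turned in sign for the kin of the VEGF and angiopoietin genes with a pseudocount of 0.1 FPKM (-0.30 to 0.094, 2 genes), for the neuropilin partners as TPM (-0.06 to 0.014) and for VEGF receptor signalling as TPM (-0.04 to 0.031). No paired analysis was possible because the table joins the libraries of a cell line in 1 value, and leaving out each replicate was not run for the same reason. Wide bounds limit ANGPTL4 and NRP1, and low levels limit FLT1, KDR and ANGPT1.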
